A study of Mus musculus with 6 samples.

Results

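The genes described here encode lysosomal hydrolases and lysosomal membrane proteins. They were chosen by name, as the 41 listed genes of this kind among the 54532 rows of the FPKM table, and every listed name was found in it. By the role of their products they fall into 7 membrane proteins, 12 proteases, 14 enzymes that cut glycans and 8 enzymes or cofactors that handle lipids. RNA-seq was performed on wild-type (WT) peritoneal macrophages in 3 groups of 2 libraries each, to ask which transcripts muscone, a macrocyclic ketone of musk, changes during activation of the NLRP3 inflammasome. The Control group was left without treatment. The Model group received LPS, the bacterial endotoxin that primes macrophages, at 500 ng/mL for 5.5 h and then ATP at 2 mM for 0.5 h, which triggers the inflammasome. The MUS group received the same LPS and ATP together with muscone at 50 µM, added 5 h after LPS. Per the study's methods, the cells of all 3 groups were collected from male C57BL/6J mice of 6 to 8 weeks, 5 days after 3% thioglycolate was injected. Thioglycolate draws inflammatory macrophages into the peritoneum, so the Control cells are elicited rather than resident cells. The labels do not say whether the replicates came from separate mice or cultures, so the p-values measure the spread between these libraries, which may be technical.

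Lysosomes are acidic organelles in which soluble hydrolases break down proteins, glycans and lipids that arrive by endocytosis, phagocytosis and autophagy. The proton pump V-ATPase acidifies them, heavily glycosylated proteins such as LAMP-1 line their membrane, and most hydrolases reach them through mannose 6-phosphate or sortilin receptors. Many of these genes carry an E-box called the CLEAR element, through which the transcription factor TFEB and its relatives raise their transcription. Macrophages hold many lysosomes, and rupture of lysosomes with release of cathepsins is a known trigger of the NLRP3 inflammasome.

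FPKM is the number of fragments per kb of gene length, scaled by the depth of the library, so it compares genes per length. The 6 libraries held between 15526321 and 17135442 fragments on genes, recovered from the FPKM steps, and these numbers cover counting error only. The medians of log2(FPKM + 1) over the 9794 genes tested lay between 2.64 and 2.70. The depth scale that the authors applied differed, with 1.39 ± 0.08 (SD, n = 2) over the fragment total in Control, 0.953 ± 0.063 in Model and 0.959 ± 0.038 in MUS. All 8 macrophage markers had a mean of at least 1 FPKM. Of 8 neutrophil markers, 2 had a mean of at least 1 FPKM, S100a9, Ly6g and Retnlg were listed at 0 in every library, and the summed level was 20.5 to 34.4 FPKM in Control, 61.3 to 114.2 in Model and 55.2 to 69.3 in MUS. The markers of B cells and mast cells summed to at most 1.90 FPKM and those of eosinophils to 1.63 to 4.19. The 7 T cell markers summed to 126.5 to 163.8 FPKM in Control, 74.6 to 105.7 in Model and 123.1 to 126.6 in MUS, of which Il7r was nearly all and the CD3 genes were below 0.1 FPKM. Mesothelial and fibroblast markers summed to 18.003 to 18.8 FPKM in Control, 21.1 to 33.7 in Model and 22.6 to 24.7 in MUS. The part of these cells in the results was not tested. The Control libraries stood apart from each other: across genes, Control 2 correlated with the stimulated libraries at r of 0.831 to 0.872 and Control 1 at 0.695 to 0.745. The macrophage markers differed between them in both directions. Cd14 was at 125.3 FPKM in Control 1 and 405.9 in Control 2, and Lyz2, Adgre1 and Csf1r were also higher in Control 2. Fcgr1 was at 18.3 FPKM in Control 1 and 7.87 in Control 2, and Mertk, Mrc1 and Itgam were also lower in Control 2. Model 1 also stood apart, with 24906 genes detected against 17406 to 19200 in the other libraries. Model 2 correlated with the MUS libraries at r of 0.958 and 0.977, and with Model 1 at 0.944. The replicate number was used as the batch, and each batch holds 1 library of each group. What the libraries of a batch shared is not stated. These are bulk libraries, in which fewer cells of a type and less RNA per cell cannot be told apart.

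Lysosomal genes were among the most abundant transcripts of these macrophages. By mean FPKM over the 6 libraries, Psap ranked 4 of the 9794 genes tested, Ctss 6, Ctsd 15 and Ctsb 17. By group means, Psap ranked 4 in Control, 9 in Model and 7 in MUS, Ctss 7, 6 and 4, and Ctsb 12, 20 and 18, while Ctsd ranked 5, 21 and 60. The median member tested had a mean of 74.3 FPKM, against 5.67 FPKM for all genes tested. Summed over the 41 genes, the level was 19030 ± 3994 FPKM (SD, n = 2) in Control, 15818 ± 3150 in Model and 14799 ± 111 in MUS. This was 8.08 ± 1.79% of all FPKM of a library in Control, 4.56 ± 0.07% in Model and 4.71 ± 0.23% in MUS, and the Control libraries lay above all others in this share. Proteases made up 50.3 to 60.7% of the sum in a library, lipid enzymes and cofactors 26.2 to 34.2%, membrane proteins 9.73 to 11.3% and glycan enzymes 3.46 to 4.13%. Of the members, 40 had a mean of at least 1 FPKM and were tested. Arsb, an enzyme that removes sulphate from glycosaminoglycans, was too low to be tested, at 1.10 and 0.702 FPKM in Control, 0.0939 and 0.556 in Model, then 0.658 and 0.551 in MUS.

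**Figure D1:**
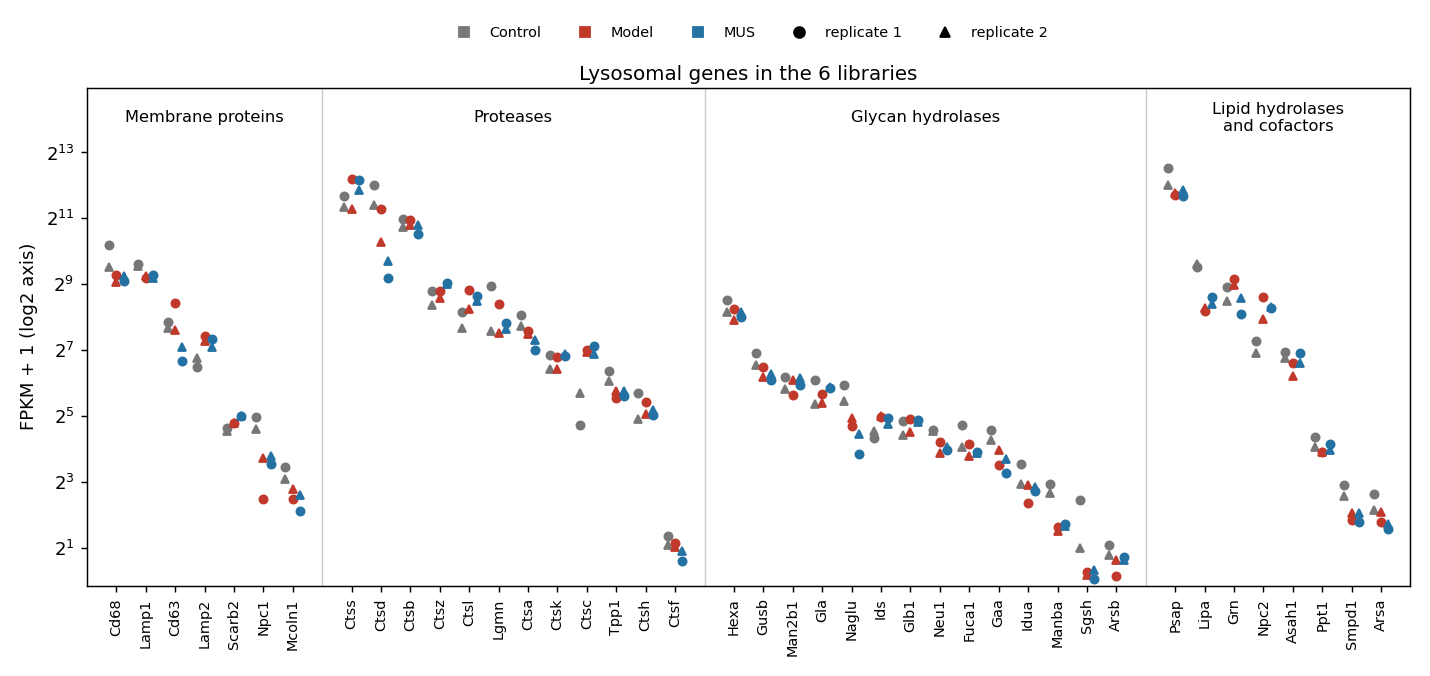
Level of each of the 41 lysosomal genes in each library, as FPKM + 1 on a log2 axis, with genes ordered by mean FPKM within 4 roles. Grey, red and blue stand for Control, Model and MUS, circles and triangles for replicates 1 and 2, and each point is 1 library. Psap, Ctss, Ctsd and Ctsb stand at the top, Ctsc is lower in Control than in the other groups, and Npc1, Lipa and Manba are higher in Control.

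The promoters of these genes were searched for the E-box CACGTG and for TCACGTGA, the core of the CLEAR element. Both motifs read the same on the other strand, and each TCACGTGA holds a CACGTG. A RefSeq table on GRCm38.p6, with 250 bases before and 50 bases after each gene start, held 40 promoters of 37 members and none of Asah1, Ctsb, Ctsh or Npc1. CACGTG was found in 13 members (32.5% of the 40 promoters), against 7.15% of all 32851 promoters of the same length. TCACGTGA was found in 4 members (10% of promoters), against 0.974% of all promoters. By role, CACGTG was held by 5 of 10 proteases, 5 of 14 glycan enzymes, 2 of 6 membrane proteins and 1 of 7 lipid genes in the table. Of the members called in a comparison below, Ctsd, the gene of the aspartic protease cathepsin D, holds TCACGTGA, and its promoter is printed for that reason. It lies at chr7:142387778-142388077 on the minus strand. The capitals mark TCACGTGA, whose CACGTG begins 98 bases before the start, and a further CACGTG that begins 245 bases before it. Distances here and below count from the RefSeq start to the first base of CACGTG. By the gene positions in the FPKM table, Ctsd begins further upstream (chr7:142388038), so its TCACGTGA lies inside the gene.
Ctsd promoter: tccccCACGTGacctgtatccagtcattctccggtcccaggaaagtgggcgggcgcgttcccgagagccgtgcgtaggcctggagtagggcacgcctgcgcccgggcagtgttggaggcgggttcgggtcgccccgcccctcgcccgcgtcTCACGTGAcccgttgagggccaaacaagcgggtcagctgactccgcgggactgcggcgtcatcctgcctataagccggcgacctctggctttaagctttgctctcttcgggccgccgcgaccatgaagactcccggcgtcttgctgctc

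The other members with TCACGTGA are Ctsa (the protective protein cathepsin A), Gla (alpha-galactosidase A) and Mcoln1 (the calcium channel TRPML1). Their sites, chosen after the sequences were seen, are given with 8 bases on each side of the CACGTG and the motif in capitals, to let the flanks be compared. One Ctsa promoter holds a pair of them around its start, 12 bases before and 5 bases after it. The other Ctsa promoter, at chr2:164832622-164832921, holds neither motif, and its window holds the gene start in the FPKM table (164832873). The Gla promoter holds a pair at 227 and 194 bases before its start. The CACGTG of the Mcoln1 site begins 45 bases before the start. By the gene positions in the FPKM table, the Ctsa and Mcoln1 sites lie inside the genes.
Ctsa, chr2:164833753-164833774, plus strand: caaactgTCACGTGAtgcagat
Ctsa, chr2:164833770-164833791, plus strand: cagatgcTCACGTGAccagagc
Gla, chrX:134601219-134601240, minus strand: cgattgaTCACGTGAgcatcta
Gla, chrX:134601186-134601207, minus strand: atctcggTCACGTGAgcaactc
Mcoln1, chr8:3500466-3500487, plus strand: gccccgcTCACGTGAccgcggc

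Lamp1, the gene of the abundant membrane glycoprotein LAMP-1, held 4 CACGTG sites within the 61 bases before its start, the most of any member. Naglu, which encodes an exoglycosidase of heparan sulphate breakdown, held 1 site 73 bases before its RefSeq start. By the start in the FPKM table (chr11:101070012), this Naglu site lies inside the gene. These sites were also chosen after the sequences were seen, Lamp1 for their number and Naglu because it was called in MUS vs. Control.
Lamp1, chr8:13159092-13159113, plus strand: caagatatCACGTGgtccagcg
Lamp1, chr8:13159108-13159129, plus strand: ccagcgccCACGTGatgccgac
Lamp1, chr8:13159125-13159146, plus strand: ccgactggCACGTGaccacatc
Lamp1, chr8:13159138-13159159, plus strand: gaccacatCACGTGcggaacgg
Naglu, chr11:101070013-101070034, plus strand: cttcaggtCACGTGgcccgagg
Ctsc, Lipa and Manba, the other called members in the table, held neither motif in this window. A match is a description of letters and no evidence of binding.

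Model vs. Control asks how priming and activation changed these genes. With limma on log2(FPKM + 1), a gene was called if its p, adjusted by Benjamini-Hochberg over the 9794 genes tested, was 0.05 or less and its absolute log2 fold change was over 1. Ctsc rose, Npc1, Lipa and Manba fell, and the other 36 members tested did not pass. These 4 calls are 10% of the 40 members, where 15.1% of all genes tested were called. The 1 higher call stands beside 9.5% of all genes and the 3 lower calls, 7.5% of members, beside 5.56%. Over all members tested, 28 of 40 had a negative log2 fold change, against 47.5% of all genes, and their median was −0.33, against 0.04 over all genes. The Model libraries lay below both Control libraries for 20 of the 40 members (all genes, 28.5%) and above both for 7 (all genes, 32.6%). Lipid genes had a median log2 fold change of −0.45, glycan enzymes −0.41, membrane proteins −0.36 and proteases −0.05.

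The count of lower members depended on the scale. Scaled to the fragment total, the median of all genes moved to −0.42 and that of the members to −0.88, with 11 members called lower and 1 higher. With quantile normalization these medians were −0.06 and −0.82, with 12 lower and 0 higher calls. Of all genes, 1633 of 10066 were called lower by fragment total and 715 of 9794 by quantile normalization. The main fit called 545 of 9794 lower. Negative values were found in 35 of 40 members by fragment total, and in 37 by quantile normalization and by rescaling without mitochondrial and the 20 highest genes. Over all 20 alternatives, the median of the members minus that of all genes lay between −0.76 and −0.14. Without Control 1 no member was called, and the difference of medians was −0.14.

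**Figure D2:**
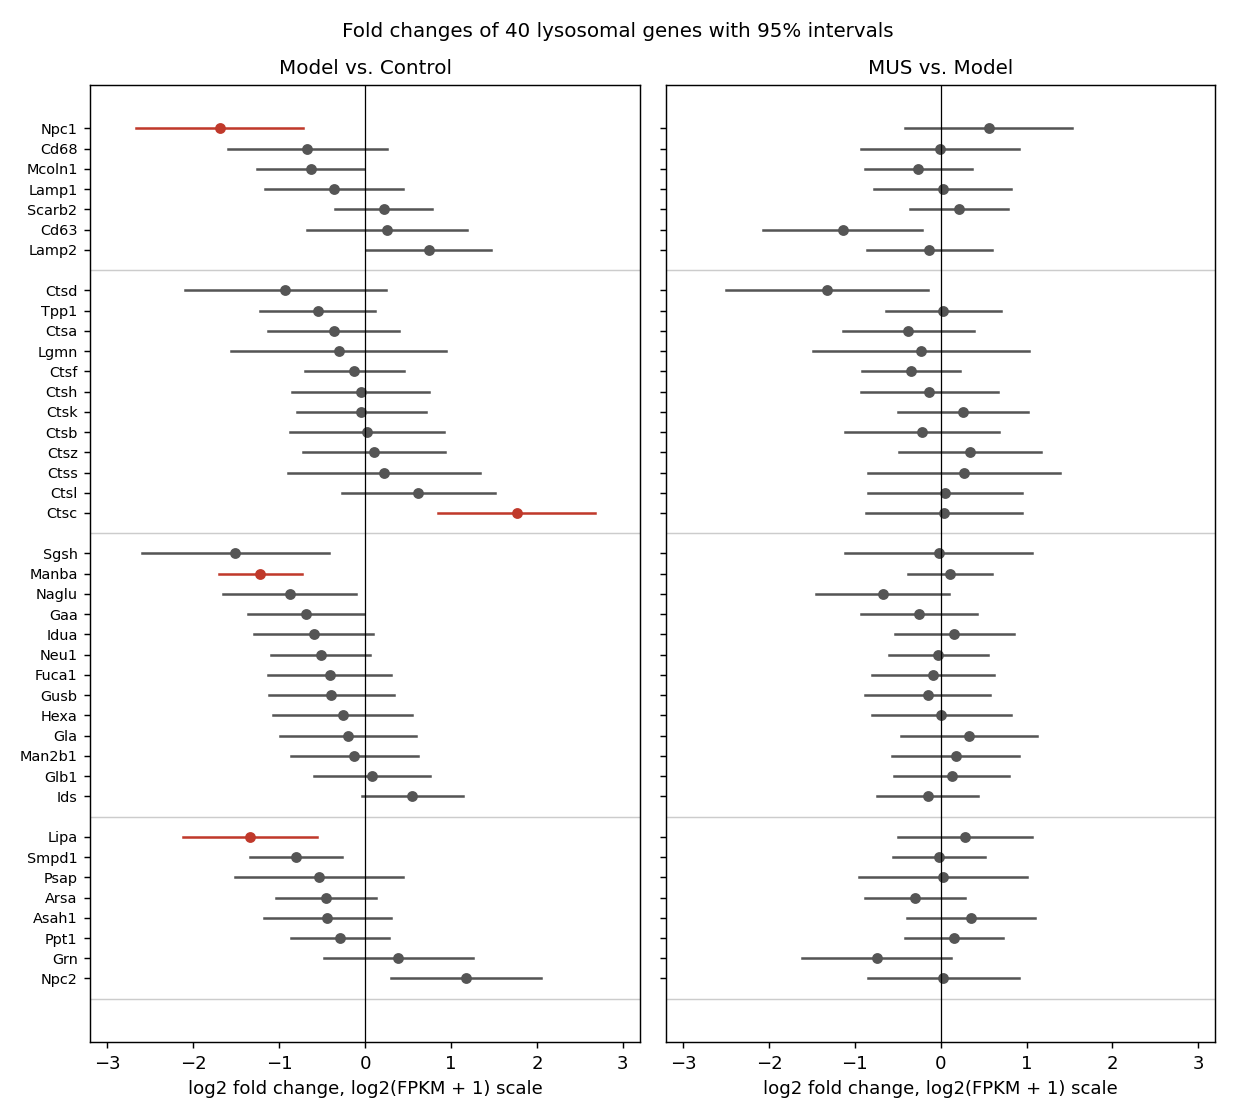
log2 fold changes on the log2(FPKM + 1) scale (x axis) of the 40 lysosomal genes tested, with 95% intervals of the limma fit as bars, for Model vs. Control and MUS vs. Model, with 4 blocks for membrane proteins, proteases, glycan enzymes and lipid genes. Red marks the called genes, Npc1, Ctsc, Manba and Lipa in Model vs. Control, and no gene is red in MUS vs. Model, where the intervals of Ctsd and Cd63 lie below 0.

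Among the membrane proteins, Npc1 fell. It encodes the multipass protein that moves cholesterol out of the lysosome (GRCm38 chr18:12189693-12236400). Its levels were 30.5 and 23.4 FPKM in Control, 4.57 and 12.2 in Model, then 10.6 and 12.7 in MUS. Every stimulated library lay below both Control libraries, and the Model libraries differed from each other by more than the MUS libraries did. It changed by −1.70 on the log2 scale in Model vs. Control (SE 0.41, limma adjusted p = 0.0331). Leaving out Control 1, Model 1 or either MUS library ended the call (adjusted p 0.0781 to 0.148), and without Model 1 the change was −1.08. The scavenger receptor family member Cd68, a macrophage marker, was at 1172 and 730.9 FPKM in Control, 624.1 and 540.0 in Model, then 543.2 and 613.2 in MUS. Its log2 fold change of −0.67 did not pass (adjusted p = 0.266), and the Control libraries differed from each other by more than Control 2 differed from Model. Lamp1, with its 4 E-boxes, was at 782.1 and 742.8 FPKM in Control, 577.7 and 610.0 in Model, then 620.4 and 587.3 in MUS, with a log2 fold change of −0.36 (adjusted p = 0.486). Lamp2, the other main LAMP protein and a receptor of chaperone-mediated autophagy, had the opposite sign, at 88.5 and 106.4 FPKM in Control and 171.5 and 154.2 in Model. Its log2 fold change of 0.74, negative under quantile normalization, did not pass either (adjusted p = 0.143). Cd63, a tetraspanin of late endosomes and exosomes, was at 230.5 and 203.5 FPKM in Control, 346.4 and 192.7 in Model, then 101.5 and 134.2 in MUS. Its Control values lay between the Model values (log2 fold change 0.25, adjusted p = 0.679). Scarb2, the receptor that carries beta-glucocerebrosidase to lysosomes, and Mcoln1 had log2 fold changes of 0.22 and −0.64.

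Among the proteases, Ctsc rose and was the called gene. It encodes cathepsin C, a dipeptidyl peptidase that activates serine proteases of granules (chr7:88278085-88310888). It was at 25.4 and 51.0 FPKM in Control, 128 and 122.0 in Model, then 139.7 and 117.6 in MUS, so the 4 stimulated libraries were close to each other and above both Control libraries. The log2 fold change was 1.76 (SE 0.39, limma adjusted p = 0.0245). Leaving out any library but Control 2 ended the call (adjusted p 0.0593 to 0.0969, log2 fold change 1.27 to 1.79). Quantile normalization also ended it, at a log2 fold change of 1.05 (adjusted p = 0.0931). Neutrophils express Ctsc too, and S100a8, which makes up most of the neutrophil sum, was at 13.5 and 30.6 FPKM in Control and 110.0 and 56.5 in Model. Mmp8, the other marker with a mean of at least 1 FPKM, was at 6.62 and 3.48 FPKM in Control and 2.63 and 3.65 in Model. Of the lower markers, Camp was at 0 and 0.288 FPKM in Control and 1.59 and 1.11 in Model. Ltf and Cxcr2 were at most at 0.152 FPKM in any library. The part of neutrophils in the result was not tested.

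The 3 most abundant proteases did not pass in Model vs. Control. Ctss, the cysteine protease that trims invariant chain for MHC class II, was at 3300 and 2625 FPKM in Control, 4734 and 2489 in Model, then 4600 and 3728 in MUS. The Model values enclosed both Control values (log2 fold change 0.22, adjusted p = 0.767). Ctsd was at 4153 and 2697 FPKM in Control, 2472 and 1249 in Model, then 584.2 and 838.7 in MUS. The groups did not overlap, but the replicates of Control and of Model lay far apart, and the log2 fold change of −0.93 (SE 0.50) did not pass (adjusted p = 0.234). Ctsb, a cysteine protease much studied in inflammasome activation, was at 2007 and 1714 FPKM in Control, 1997 and 1764 in Model, then 1472 and 1761 in MUS, and the log2 fold change of 0.02 has a 95% interval of −0.88 to 0.92. The other 8 proteases, Ctsa, Ctsf, Ctsh, Ctsk, Ctsl, Ctsz, Lgmn and Tpp1, had log2 fold changes from −0.55 in Tpp1, a tripeptidyl peptidase, to 0.62 in Ctsl, a cysteine endopeptidase. Other annotated genes overlap 34.4% of the exon bases of Ctsd (Gm49369, listed at 0 in every library), 26.8% of Ctsl, 17.4% of Ctsa and 12.8% of Ctsb. Reads there could belong to either gene. None was assigned to Gm49369, and how reads in these overlaps were handled was not tested.

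Among the glycan enzymes, Manba fell. It encodes beta-mannosidase, which removes the last mannose of N-glycan cores (chr3:135485611-135571404). It was at 6.63 and 5.31 FPKM in Control, 2.07 and 1.87 in Model, then 2.27 and 2.14 in MUS, from between 202 and 1056 fragments per library. The groups of stimulated libraries were tight and lay below both Control libraries. The log2 fold change was −1.22 (SE 0.20, limma adjusted p = 0.0105), and without Control 1 it was −1.09 (adjusted p = 0.0604). Naglu was at 60.6 and 42.5 FPKM in Control, 24.7 and 29.9 in Model, then 13.3 and 20.7 in MUS, and its step from Control to Model did not pass (log2 fold change −0.88, adjusted p = 0.110). The most abundant glycan enzymes were flatter. Hexa, the alpha subunit of beta-hexosaminidase A, was at 366.1 and 282.3 FPKM in Control, 300.7 and 239 in Model, then 253.4 and 287.0 in MUS (log2 fold change −0.26, adjusted p = 0.623). Gusb, beta-glucuronidase, was at 120.3 and 92.4 FPKM in Control, 89.2 and 71.8 in Model, then 67.5 and 76.7 in MUS (log2 fold change −0.39, adjusted p = 0.402). Man2b1, the lysosomal alpha-mannosidase, was at 71.6 and 55.4 FPKM in Control, 48.9 and 67.7 in Model, then 60.8 and 69.7 in MUS, with overlap between all groups.

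Sgsh, a sulphamidase that acts with Naglu on heparan sulphate, had the most negative fold change of this role without passing the test, and was chosen after its values were seen. It was at 4.46 and 0.980 FPKM in Control, 0.193 and 0.117 in Model, then 0.0300 and 0.251 in MUS, from 450, 99, 12, 8, 2 and 18 fragments. In FPKM, the Control libraries differed by more than the Model or the MUS libraries did. The log2 fold change was −1.51 (adjusted p = 0.0657), and with the replicate block the adjusted p was 0.0489. Card14 overlaps 21.6% of its exon bases. The remaining 7 glycan enzymes tested, Fuca1, Gaa, Gla, Glb1, Ids, Idua and Neu1, had log2 fold changes from −0.68 in Gaa, acid alpha-glucosidase, to 0.55 in Ids, iduronate 2-sulphatase.

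Among the lipid genes, Lipa fell. It encodes lysosomal acid lipase, which frees cholesterol from its esters (chr19:34492318-34527474). It was at 740.9 and 777.1 FPKM in Control, 290.8 and 308.6 in Model, then 390.9 and 340.2 in MUS, and the replicates of each group were close beside the distance from Control to the stimulated groups. The log2 fold change was −1.34 (SE 0.33, limma adjusted p = 0.0351), and with the replicate block the adjusted p was 0.0646. Leaving out any library but Control 2 also ended the call (adjusted p 0.0606 to 0.113, log2 fold change −1.38 to −1.30). Npc2, the soluble partner that hands cholesterol to the NPC1 protein, had the opposite sign and was chosen after its values were seen. It was at 154.7 and 119.4 FPKM in Control, 390.4 and 243.4 in Model, then 311.6 and 319.3 in MUS, with every stimulated library above both Control libraries. Its log2 fold change of 1.18 (SE 0.37) did not pass (adjusted p = 0.0717), and under quantile normalization it was 0.23. It was called with voom (adjusted p = 0.0484) and without a trend (adjusted p = 0.0387).

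Psap, which encodes the precursor of the saposins, the activators of sphingolipid hydrolases, was the most abundant member by the mean of all libraries, though below Ctss in Model 1 and both MUS libraries. It was at 5945 and 4156 FPKM in Control, 3348 and 3501 in Model, then 3307 and 3705 in MUS, and the log2 fold change of −0.54 did not pass (adjusted p = 0.394). Grn, the progranulin gene, was at 477.2 and 359.3 FPKM in Control, 575.2 and 507.7 in Model, then 273.1 and 378.6 in MUS (log2 fold change 0.38, adjusted p = 0.494). Smpd1, acid sphingomyelinase, had a log2 fold change of −0.81 with an adjusted p of 0.0522. Arsa, Asah1 and Ppt1 had log2 fold changes from −0.45 to −0.29.

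Ratios between genes within a library do not depend on its scale, and the pairs below were chosen after the values were seen, with no test. The ratio of Npc2 to Npc1 FPKM was 5.08 and 5.10 in Control, 85.4 and 20.03 in Model, then 29.3 and 25.2 in MUS. The Control libraries matched each other, and every stimulated library lay above them. The ratio of Lamp2 to Lamp1 was 0.113 and 0.143 in Control and between 0.232 and 0.297 in the 4 stimulated libraries. The ratio of Ctsd to Ctss was 1.26 and 1.03 in Control, 0.522 and 0.502 in Model, then 0.127 and 0.225 in MUS, so it stepped down at both comparisons with no overlap. The ratio of Ctsl to Ctsd stepped up, from 0.0683 and 0.0749 through 0.182 and 0.241 to 0.689 and 0.431. The ratio of Grn to Psap was 0.0803 and 0.0864 in Control, 0.172 and 0.145 in Model, then 0.0826 and 0.102 in MUS, with Model above the other groups. The ratio of Cd63 to Lamp1 was 0.295 and 0.274 in Control, 0.600 and 0.316 in Model, then 0.164 and 0.229 in MUS.

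**Figure D3:**
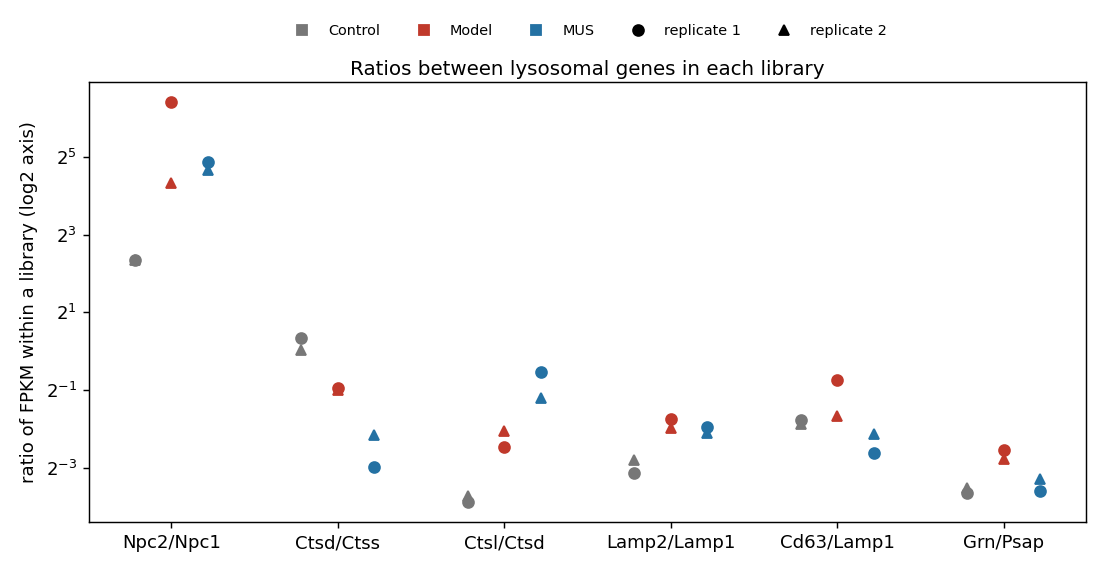
Ratio of the FPKM of pairs of lysosomal genes within each library, on a log2 axis, with 1 point per library (grey Control, red Model, blue MUS, circle replicate 1, triangle replicate 2). The ratio of Npc2 to Npc1 is about 5 in both Control libraries and at least 20.03 in the others, and the ratio of Ctsd to Ctss falls in steps from Control (1.26 and 1.03) to MUS (0.127 and 0.225).

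MUS vs. Model asks what muscone changed in activated cells. No member was called by limma, nor by voom on the recovered fragments, and neither was any of the 9794 genes tested (0%). Some other settings called genes, none of them a member, and with 1 library left out their number depended on which library it was. For example, 1 was called with a pseudocount of 0.1, 4 with the replicate block and 7 with only the 2 groups compared. The paper reports changed genes in this comparison from DESeq2, most of them lower, and that test was not repeated here. At an unadjusted p under 0.05 stood 2 members, Ctsd and Cd63, both with negative log2 fold changes, or 5% of the members, beside 5.81% of all genes that were lower (569) and 2.61% that were higher (256) at that p. The median log2 fold change of the members was −0.00014 and that of all genes 0.01, with 20 members on each side of 0 and 48.7% of all genes under it. MUS lay below both Model libraries for 9 of the 40 members (all genes, 21%) and above both for 7 (all genes, 21.2%).

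Ctsd, at 2472 and 1249 FPKM in Model, then 584.2 and 838.7 in MUS, had a log2 fold change of −1.33 (95% interval −2.50 to −0.15, unadjusted p = 0.0319, adjusted p = 0.526). The groups did not overlap, but in FPKM the Model libraries differed from each other by more than Model 2 from either MUS library. Without Model 1 the value was −0.83 and without Model 2 it was −1.82. Cd63, at 346.4 and 192.7 FPKM in Model, then 101.5 and 134.2 in MUS, had a log2 fold change of −1.14 (95% interval −2.07 to −0.21, unadjusted p = 0.0227, adjusted p = 0.493). In FPKM, its Model libraries also differed from each other by more than Model 2 from either MUS library. On the log2 scale of the fit, Model 2 lay further from MUS 1 than from Model 1, for both Ctsd and Cd63. Over all settings, including those that left out 1 library, the value of Cd63 ran from −1.56 to −0.72. Cd63 shares 11.1% of its 50-base stretches with the pseudogene Cd63-ps, which was listed at 138.1 and 97.7 FPKM in Model, then 31.1 and 64.6 in MUS, so part of either value may belong to the other gene. Grn had a log2 fold change of −0.75 (adjusted p = 0.668) and Naglu of −0.68 (adjusted p = 0.659), both with MUS below both Model libraries.

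The 4 genes called in Model vs. Control showed smaller differences in MUS vs. Model. They were picked by a comparison that shares the Model libraries, so a smaller difference, or one back towards Control, is no result of its own. Npc1 differed by 0.56 on the log2 scale (95% interval −0.41 to 1.53), with the MUS values between or just above the Model values. For Lipa the difference was 0.28 (95% interval −0.50 to 1.065) and for Manba 0.11 (95% interval −0.38 to 0.59), and both had MUS above both Model libraries. Ctsc differed by 0.04 (95% interval −0.87 to 0.95). These intervals still hold upward changes of over 1.5-fold for all 4 genes, and downward changes of that size for Ctsc. Ctsb, Ctsl and Ctss, 3 of the cathepsins, differed by −0.22, 0.05 and 0.27. The proteases ran from −1.33 in Ctsd to 0.34 in Ctsz. By role, the median log2 fold change was −0.05 in proteases, −0.02 in glycan enzymes, −0.01 in membrane proteins and 0.03 in lipid genes.

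MUS vs. Control shares its libraries with both comparisons above and is given beside them. Ctsc was called higher, and Ctsd, Manba and Naglu were called lower, again 4 of 40 members (10%) where 20.2% of all genes were called. For the lower calls, 7.5% of members stand beside 8.91% of all genes, and for the higher call 2.5% beside 11.3%. Ctsd had a log2 fold change of −2.26 (SE 0.50, limma adjusted p = 0.0198), the largest among the members, with group means of 3425 ± 1030 FPKM (SD, n = 2) in Control and 711 ± 180 in MUS. For Naglu it was −1.56 (SE 0.33, adjusted p = 0.0167). Naglu is GC-rich (59.5%, where the median of all genes tested is 49.3%), and after a correction for GC content, chosen after seeing the data, its value was −0.71 (adjusted p = 0.0879). With that correction and the replicate block, Ctsd was at −1.81 (adjusted p = 0.0558). Ctsc had a log2 fold change of 1.80 (adjusted p = 0.0178) and Manba of −1.12 (adjusted p = 0.0107). Npc1, at −1.14, and Lipa, at −1.055, did not pass here (adjusted p = 0.0852 and 0.0575), and whether their change differed from that in Model vs. Control is the MUS vs. Model difference given above. Npc2 was at 1.21 (adjusted p = 0.0535) and Cd63 at −0.89 (adjusted p = 0.140). With voom, 7 members were called lower and 2 higher, and scaled to the fragment total 17 were called lower. Of all genes, voom called 1107 of 9794 lower, and fragment-total scaling 2044 of 10066. Leaving out either MUS library ended all 4 calls, and leaving out Control 1 ended the 3 lower calls.

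Other genes of the organelle were counted in 3 lists. In the list of 58 further lysosomal enzymes and membrane proteins, 50 were tested and 13 were called in Model vs. Control (26% of those tested, beside 15.1% of all genes), 3 higher and 10 lower, with a median of −0.37. Those that rose were Acp5 (log2 fold change 2.54, adjusted p = 0.00660), the tartrate-resistant acid phosphatase, at 31.1 and 51.0 FPKM in Control and 257.0 and 217.9 in Model, then Cd164 (1.77), a sialomucin, and Rnaset2b (1.33), an acid ribonuclease. The largest decreases were in 3 transporters: Mfsd12 (−2.08), which carries cysteine into lysosomes, Ctns (−2.004), which exports cystine, and Slc17a5 (−1.91), which exports sialic acid. Mfsd12 was at 58.2 and 51.0 FPKM in Control, 9.58 and 15.2 in Model, then 4.23 and 10.02 in MUS. Ctns was at 12.1 and 9.82 FPKM in Control, 1.504 and 2.53 in Model, then 2.07 and 2.74 in MUS, so no stimulated library of either gene overlapped Control. Without Model 1 the number called in this list was 4, without Control 1 it was 5, and without either MUS library it was 6.

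In the list of 25 V-ATPase subunits and accessory proteins, 18 were tested and 2 were called in Model vs. Control. These 2 calls are 11.1% of those tested, beside 15.1% of all genes. Both were membrane-sector subunits and both were lower. Atp6v0a1 was at 110.2 and 64.3 FPKM in Control and 14.9 and 27.2 in Model (log2 fold change −2.01, adjusted p = 0.0168). Atp6v0d2, an isoform of macrophages and osteoclasts, was at 428.1 and 261.4 FPKM in Control and 121.4 and 121.8 in Model (log2 fold change −1.45, adjusted p = 0.0339). The median of the 18 was 0.08. Leaving out Control 1, Model 1 or either MUS library ended both calls.

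In the list of 42 genes for sorting, regulation and cathepsin inhibition, 39 were tested and 7 were called in Model vs. Control, 2 higher and 5 lower. These 7 calls are 17.9% of those tested, beside 15.1% of all genes. Of all genes, 9.5% were called higher and 5.56% lower. Tfeb, the transcription factor that binds CLEAR elements, fell (log2 fold change −2.29, adjusted p = 0.00667). It was at 9.86 and 4.75 FPKM in Control, 0.825 and 0.433 in Model, then 0.408 and 0.478 in MUS, and its Control libraries differed while all stimulated libraries were below 1 FPKM. Its relative Tfec, found mainly in macrophages, rose by 1.86 (adjusted p = 0.0398), from 1.58 and 6.85 FPKM in Control to 16.7 and 14.2 in Model. For Tfe3 and Mitf, the other relatives, which were named after their values were seen, the log2 fold changes were −0.57 (adjusted p = 0.185) and 0.15 (adjusted p = 0.762). Sort1, which encodes the sorting receptor sortilin, fell by 2.02 (adjusted p = 0.00325), from 19.7 and 17.9 FPKM in Control to 3.21 and 4.64 in Model. Also lower were Gga2 (−1.43), an adaptor that moves mannose 6-phosphate receptors, Sorl1 (−1.41), a sortilin relative, and Flcn (−1.33), folliculin, which controls TFEB, whereas Cst7 (1.80), the inhibitor cystatin F of cathepsin C and related proteases, rose with an adjusted p of 0.0494. Neither Tfec nor Cst7 was called under fragment-total scaling, quantile normalization or rescaling without mitochondrial and the 20 highest genes. Without Control 1, Model 1 or either MUS library, 4 genes of this list were called. In MUS vs. Model, limma and voom called no gene of the 3 lists. At an unadjusted p under 0.05 were Lamtor1 (−1.19), an anchor of mTORC1 on lysosomes, Ap1s1 (−1.01), an adaptor subunit, and Atp6v0b (−1.37), a V-ATPase subunit, all with negative values and named after these were seen. These are 2 of 39 sorting and regulation genes, 1 of 18 V-ATPase genes and 0 of 50 further lysosomal genes tested. Of all genes, 5.81% were lower and 2.61% higher at that p, so the lists do not stand out.

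**Figure D4:**
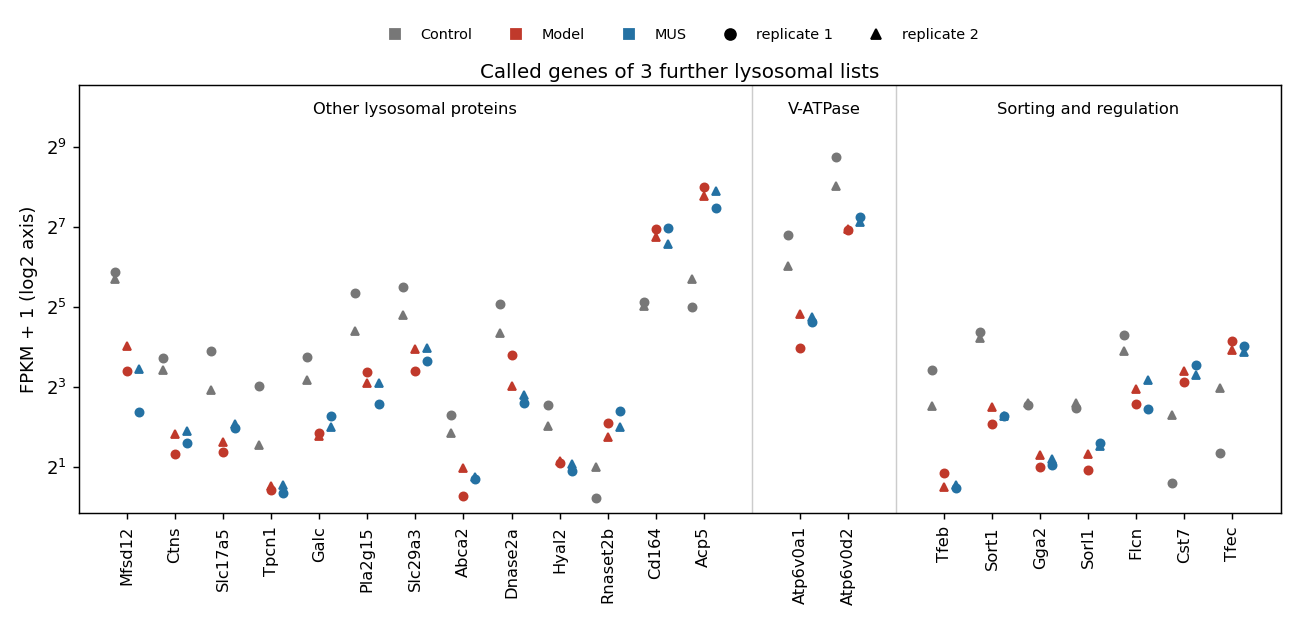
Level of the genes of the 3 further lists called in Model vs. Control, as FPKM + 1 on a log2 axis, with 1 point per library (grey Control, red Model, blue MUS, circle replicate 1, triangle replicate 2). The stimulated libraries of Tfeb lie below 1 FPKM, Acp5, Cd164, Rnaset2b, Cst7 and Tfec are higher than in Control, and the other called genes are lower.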

How the data were processed

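RNA-seq covered 6 libraries, 2 per group, grouped by the treatment in the labels. The authors deposited 1 table of FPKM with a column per library, and 0 columns had no sample. Their methods name RSEM and DESeq2, whereas the submitters' processing notes list HISAT2, featureCounts 1.5.0-p3 and GRCm39. Gene starts and ends were identical on GRCm38 for 98.3% of the 54409 IDs that GENCODE M21 also holds, so GRCm38 coordinates are given. In each library, 100% of the deposited values times gene length were multiples of 1 step within 0.1 of it, from which fragments were recovered. The limit allowed by a count of 0, which is 3 fragments, corresponds to 0.131 to 0.213 FPKM for a gene 1 kb long. The count test of the study was not repeated.

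limma 3.58.1 (R 4.3.3) with a mean-variance trend, two-sided, was fitted to log2(FPKM + 1) for every gene whose mean FPKM reached 1, in 1 model of 3 groups with 3 residual and 4.04 prior degrees of freedom. Fold changes on that scale understate the change of low genes. With 2 libraries against 2, no exact permutation test can go below p = 0.333, so none was used. Python 3.11.15 (pandas 2.3.3, NumPy 2.4.6, Matplotlib 3.10.9) served for tables, promoter searches and figures. The fit was tested on simulated data. The replicate number was used as the batch, and it pairs the libraries. Deviations of same-numbered libraries correlated at 0.119 (Control with Model), 0.136 (Model with MUS) and −0.0928 (Control with MUS). The methods text read here names no block, so the block was an alternative. Overlaps and shared 50-base stretches were read from GENCODE M21 transcripts.

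The members, the 3 further lists and the tests were chosen with earlier results of these data known. By rule, library values are given for members called in any comparison, under an unadjusted p of 0.05 in MUS vs. Model, or among the 3 highest of a role, and the 3 largest called changes of a list in each direction are named. Genes outside that rule that are given with their values are marked in the text or, like Lamp2, Scarb2 and the range ends of a role, illustrate its spread. Alternatives changed the filter, pseudocount, scaling, model, block, GC or length correction, or left out 1 library.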

Additional observations from a re-analysis of the deposited data

How the results depend on the processing

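Of the counts of called members and list genes, those in MUS vs. Model stayed at 0 under all 20 alternatives. In Model vs. Control, with 1 member higher and 3 lower, no filter on low values gave 0 and 0, a mean FPKM of at least 5 gave 2 lower, quantile normalization gave 0 higher and 12 lower, fragment-total scaling gave 11 lower and rescaling without mitochondrial and the 20 highest genes 16 lower. voom and the fit without a trend gave 2 higher, and the fit of only the 2 groups compared gave 0 higher and 1 lower. Over all genes, 63.1% of calls were higher in Model, and 28.4%, 23.8% and 49.7% under fragment-total scaling, the rescaling and quantile normalization. In MUS vs. Control, with 1 higher and 3 lower, no filter gave 0 and 0, quantile normalization 0 and 14, fragment-total scaling and the rescaling 17 lower each, voom 2 and 7, the 2 groups only 2 and 5, the fit without a trend 2 higher, a mean FPKM of at least 5 gave 2 lower and the GC correction with replicate block 1 lower. The 13 other lysosomal genes became 1 with no filter, 24, 22 and 19 under the 3 scalings and 6 with 2 groups only. The 2 V-ATPase calls became 0 with no filter and with 2 groups only and 5 under each of the 3 scalings. The 7 sorting and regulation calls became 1 with no filter, 4 at a mean FPKM of at least 5 and with 2 groups only, and 10 under the rescaling. Under the same 3 scalings, 2280 of 10066, 2438 of 9938 and 1422 of 9794 genes were called in Model vs. Control. Called lower among them were 1633, 1857 and 715. In MUS vs. Control, 2044, 2035 and 1102 of all genes were called lower. The cause of these shifts was not tested. Leaving out 1 library at a time, the lower members numbered 0 to 4 in Model vs. Control and 0 to 5 in MUS vs. Control, the higher ones 0 to 1 and 0 to 2, and the list genes 4 to 19, 0 to 2 and 4 to 7. The replicate block, which pairs the libraries by batch, left 1 higher and 3 lower members in Model vs. Control, with Sgsh in place of Lipa, and 4 lower in MUS vs. Control, with Sgsh added; in the sorting list it added Igf2r, and it changed no other call of the members or lists in Model vs. Control.

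No member called in a comparison turned its direction there. In Model vs. Control, fragment-total scaling turned the sign of 7 of the 40 members tested, and the rescaling and quantile normalization of 9 each. For the 16 members given by the naming rule, the log2 fold change of those not called turned sign as follows. Under fragment-total scaling, the rescaling and quantile normalization, Model vs. Control became −0.29, −0.38 and −0.75 for Cd63, −0.53, −0.62 and −0.90 for Ctsb, −0.33, −0.41 and −0.26 for Ctss and −0.16, −0.25 and −0.61 for Grn. MUS vs. Control became −0.48, −0.49 and −0.61 for Man2b1 and −0.047 and −0.056 (the first pair of scalings) for Ctss, and MUS vs. Model 0.00053, 0.077 and 0.055 for Cd68. Quantile normalization gave 0.22 for Ctsb and −0.056 for Psap in MUS vs. Model, and median centring −0.0079 for Hexa. The gene-length correction gave 0.11 for Cd68 and −0.025 for Ctsc in MUS vs. Model and −0.061 for Man2b1 in MUS vs. Control. The GC correction, with or without the replicate block and chosen after seeing the data, gave 0.14 for Cd68 and −0.030 for Ctsc in MUS vs. Model, and 0.11 for Grn and 0.19 for Hexa in MUS vs. Control. Leaving out 1 library at a time, in Model vs. Control the values ran from −0.17 to 0.67 for Cd63, −0.10 to 0.13 for Ctsb, −0.24 to 0.69 for Ctss and −0.36 to 0.10 for Man2b1. In MUS vs. Model the values ran from −0.11 to 0.10 for Cd68, −0.085 to 0.16 for Ctsc, −0.19 to 0.73 for Ctss, −0.31 to 0.0027 for Gusb, −0.16 to 0.17 for Hexa, −0.015 to 0.064 for Lamp1, −0.055 to 0.41 for Man2b1, −0.061 to 1.18 for Npc1 and −0.050 to 0.11 for Psap. In MUS vs. Control the values ran from −0.13 to 0.23 for Man2b1.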
